A study of Chrysanthemum x morifolium with 12 samples.

Results

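*CHLH*, *CRD*, and *PORC* encode enzymes of the magnesium branch of chlorophyll (Chl) biosynthesis, and their transcript levels were followed in white and green petals and in leaves of chrysanthemum. They were chosen by gene name, 1 probe each, and make up 3 of the 176026 probes on the array. The probes are PD0028_022231 for *CHLH*, PD0028_062998 for *CRD*, and PD0028_042108 for *PORC*. The gene names come from the study's list of Chl metabolic genes, which pairs 31 names with probes, because the scanner files name none. The study singled these genes out on the same arrays, so that a difference given here is not independent evidence.

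The magnesium branch begins where Mg-chelatase inserts magnesium into protoporphyrin IX, the point at which Chl biosynthesis leaves the path to heme. Mg-chelatase is built from the H subunit, which binds the porphyrin and is encoded by *CHLH*, and the I and D subunits, encoded by *CHLI* and *CHLD*. The Mg-protoporphyrin is then methylated by the *CHLM* product, and the cyclase to which *CRD* belongs closes the isocyclic ring of its monomethyl ester. A vinyl reductase (*DVR*) reduces a side chain, protochlorophyllide oxidoreductase (POR) reduces protochlorophyllide in the light, and Chl synthase (*CHLG*) attaches the phytol tail. In Arabidopsis, the POR isoform PORA is known from dark-grown seedlings and PORC from green tissue in the light.

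RNA was taken from ray floret petals at the middle stage of flower development from 3 cultivars, Feeling White (FW, white petals), Feeling Green (FG, green petals), and Feeling Green Dark (FGD, green petals), and from mature FG leaves. FW and FGD arose from FG as bud sports, so each is a single vegetative line, and all plants grew in a greenhouse in natural daylight. Each of the 4 groups was measured on 3 one-color arrays, described as biological triplicates, and only FG contributed leaves. Petals and leaves are mixtures of cell types, so fewer cells that express a gene and less transcript per cell cannot be told apart in any value below, and no petal or leaf marker probe was fixed with which to check the labels.

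The primers that the study designed to amplify these 3 transcripts by RT-qPCR are shown because the sources used here give no other sequence for these genes. They are labelled by gene name and were not matched to the array probes, so they do not establish what the probes detect. They are written 5′ to 3′ in lower case with no part marked, and they are not the array probes.
*CHLH* forward: accaaatgcttatattgccgacac
*CHLH* reverse: agcctcttctcaatttcacgaaca
*CRD* forward: gtcatcattgagacaaaccgcact
*CRD* reverse: aagttcttcaccaacgggatgtca
*PORC* forward: gttcgccaatttgtggacacg
*PORC* reverse: atctagcaacaacctcgaaagaaga
The primers are 21 to 25 bases long. The RT-qPCR measurements were not analysed here.

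Levels are log2 background-corrected signals minus the 75th percentile of the same array, so a level of 0 is the signal at that percentile, and no probe's level is compared with another probe's. The percentile signal was 308 to 347 in the petal arrays and 188 to 209 in the leaf arrays, and 63.2% to 69.6% of probes were well above background. The scaling thus raises leaf levels relative to petal levels. The size of every difference between leaves and petals, and every share of the leaf level, depends on it. No spot was saturated, and *CHLH*, *CRD*, and *PORC* each exceeded background clearly on every array. The arrays lay on 3 slides. FG petals, with FW petal replicate 1, were on slide 1. The other FW petal arrays, replicates 2 and 3, shared slide 2 with FGD petal replicates 1 and 2, and leaves shared slide 3 with FGD petal replicate 3. FG and FGD petals shared no slide.

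*CHLH* was lowest in FW petals, with log2 levels of 0.55, 0.85, and 0.48 in replicates 1 to 3. In FG petals its levels were 2.62, 2.91, and 2.48, and in FGD petals they were 3.63, 3.62, and 3.84. In FG leaves they were 6.44, 6.07, and 6.22. The arrays of the 4 groups did not overlap, and the order was FW petals, FG petals, FGD petals, and leaves. The means were 0.63 ± 0.19, 2.67 ± 0.22, 3.70 ± 0.13, and 6.24 ± 0.18 (SD, n = 3 each). Taken as a share of the leaf level, *CHLH* stood at 2.04% in FW, 8.41% in FG, and 17.1% in FGD petals.

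*CRD* gave the same order of groups. Its log2 levels were 2.16, 2.67, and 2.53 in FW petals and 5.42, 5.61, and 5.37 in FG petals. They were 6.28, 6.34, and 6.38 in FGD petals and 8.50, 8.28, and 8.38 in leaves. The 4 groups again did not overlap, and the FGD petal arrays lay within 0.10 of each other. The means were 2.45 ± 0.26, 5.47 ± 0.13, 6.33 ± 0.05, and 8.39 ± 0.11 (SD, n = 3 each). As a share of the leaf level these are 1.63%, 13.2%, and 24.1% in FW, FG, and FGD petals.

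*PORC* levels were 3.17, 3.58, and 3.32 in FW petals and 5.54, 5.56, and 5.30 in FG petals. They were 5.89, 5.72, and 5.82 in FGD petals and 7.75, 7.59, and 7.63 in leaves. The groups followed one another in the same order without overlap, but the highest FG petal array and the lowest FGD petal array were only 0.17 apart, against 0.70 for *CHLH* and 0.67 for *CRD*. The means were 3.36 ± 0.21, 5.46 ± 0.14, 5.81 ± 0.08, and 7.65 ± 0.08 (SD, n = 3 each). The petals of FW, FG, and FGD thus had 5.08%, 21.9%, and 27.8% of the leaf level of *PORC*.

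**Figure D1:**
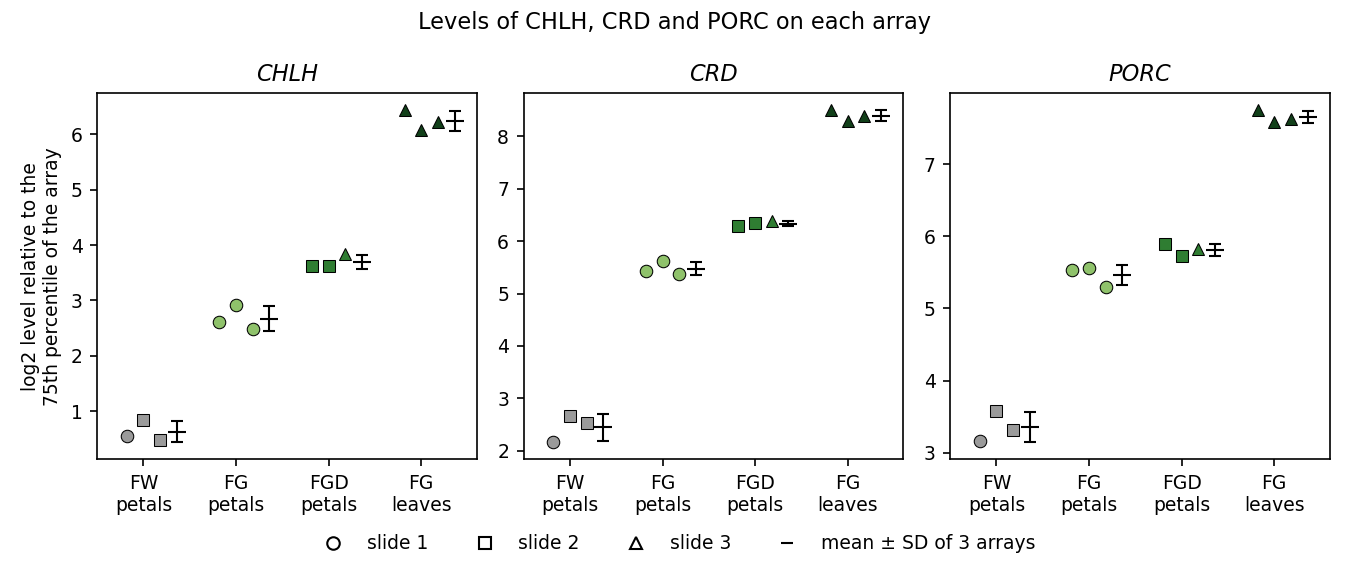
Log2 level of *CHLH*, *CRD*, and *PORC*, relative to the 75th percentile of each array, on the 12 arrays (y axis) by group (x axis). Symbols give the slide, and the bars are the mean and SD of 3 arrays. In each panel the 4 groups rise from FW petals to leaves without overlap, and the step from FG to FGD petals is the smallest, 0.35 for *PORC*.

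Of the 70261 tested probes whose order could be judged, 2365 (3.37%) had all 4 groups in this order without overlap. How the rise was divided is given for each of the 3 genes as a description, and the shares were not tested. From FW petals to leaves, the mean rose by 5.61 for *CHLH* (49.0-fold), 5.94 for *CRD* (61.2-fold), and 4.30 for *PORC* (19.7-fold). On the log2 scale, the step from FW to FG petals took 36.4% of the rise of *CHLH*, 50.9% of that of *CRD*, and 49.0% of that of *PORC*. The step from FG to FGD petals took 18.3%, 14.5%, and 8.05%, and the step from FGD petals to leaves 45.4%, 34.6%, and 42.9%. FG and FGD petals shared no slide, so their step cannot be told apart from a difference between slides. The step to leaves depends on the scaling of the arrays.

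The comparison of FW with FG petals asks which steps of the branch are expressed lower where petals are white. *CRD* was expressed 8.11-fold lower in FW petals, a log2 difference of −3.02 (95% interval −3.29 to −2.75; adjusted p = 8.39e-08). *PORC* was 4.31-fold lower (−2.11, −2.36 to −1.86; adjusted p = 4.74e-07), and *CHLH* was 4.12-fold lower (−2.04, −2.36 to −1.73; adjusted p = 2.45e-06). Adjusted p values are from limma, with 1 fit of the 12 arrays and Benjamini-Hochberg adjustment over the 70270 probes whose mean signal was at least 100, and a probe was called at an adjusted p under 0.05. Of all probes tested, 20.0% were called lower in FW petals, 8.65% were called and over 2-fold lower, and 2.04% were called and over 5-fold lower. The difference of *CHLH* or a larger one in the same direction was found in 2.76% of probes, that of *PORC* in 2.58%, and that of *CRD* in 1.15%.

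FGD petals were set against FG petals to see whether the branch differs between the green cultivars. *CHLH* was 2.04-fold higher in FGD petals (log2 difference 1.03, 0.71 to 1.34; limma adjusted p = 0.000723) and *CRD* was 1.82-fold higher (0.86, 0.59 to 1.14; adjusted p = 0.000831). *PORC* was 1.27-fold higher (0.35, 0.10 to 0.60), with an adjusted p of 0.0432, and this call held in 8 of 23 other settings, arrays left out included. The share of all probes called higher was 14.1%, and 3.27% were called and over 2-fold higher, as *CHLH* was. With the slide as a block the differences were 0.84 for *CHLH* (0.21 to 1.47; adjusted p = 0.146), 0.41 for *CRD* (0.02 to 0.79; adjusted p = 0.235), and 0.058 for *PORC* (−0.39 to 0.51; adjusted p = 0.911), and none passed. That fit links slides 1 and 2 through FW petal replicate 1 against FW petal replicates 2 and 3, and it called 2225 probes of any kind where the fit without the block called 19858.

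FGD petals were also compared with FW petals, with which they shared slide 2. *CRD* was 14.8-fold higher in FGD petals (log2 difference 3.88; limma adjusted p = 9.47e-09), *CHLH* 8.38-fold higher (3.07; adjusted p = 9.44e-08), and *PORC* 5.48-fold higher (2.45; adjusted p = 9.15e-08). Of all probes, 24.0% were called higher and 3.25% were called and over 5-fold higher. Between the 2 FGD and the 2 FW petal arrays of slide 2 alone, the differences were 3.72, 2.96, and 2.35 in the same order of genes.

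Leaves of FG stood above petals of FG for each gene. *CHLH* was 11.9-fold higher in leaves (log2 difference 3.57; limma adjusted p = 3.44e-09), *CRD* 7.55-fold higher (2.92; adjusted p = 5.24e-09), and *PORC* 4.57-fold higher (2.19; adjusted p = 2.4e-08). Before scaling, *CHLH* signals were 13969 to 16543 in leaves and 1928 to 2601 in FG petals. Those of *CRD* were 62567 to 68978 and 14350 to 16895, and those of *PORC* 37044 to 41043 and 13608 to 16216. Each gene was thus higher in leaves before scaling too, but the sizes of these folds rest in part on the scaling. Among all probes, 33.9% were called higher in leaves and 6.82% were called and over 5-fold higher. Against FGD petals the leaf levels were 5.84-fold, 4.15-fold, and 3.59-fold higher for *CHLH*, *CRD*, and *PORC* (2.55, 2.05, and 1.84; the largest limma adjusted p was 9.25e-08), where 34.8% of probes were called higher. These comparisons use the same petal or leaf arrays and are not independent of each other.

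The slides that held more than 1 group gave differences of the same sign. On slide 1, FW petal replicate 1 differed from the mean of the FG petal arrays by −2.12 for *CHLH*, −3.31 for *CRD*, and −2.30 for *PORC* on the log2 scale. On slide 3, the 3 leaf arrays lay above FGD petal replicate 3 by 2.40, 2.01, and 1.84. With the slide as a block, the fitted differences of these pairs of groups equal the within-slide differences, so that fit is no separate check. Between white and FG petals it rests on 1 FW petal array, and between leaves and FGD petals on 1 FGD petal array. Between white and FGD petals, with 2 arrays of each on slide 2, the largest limma adjusted p was 1.12e-05.

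**Figure D2:**
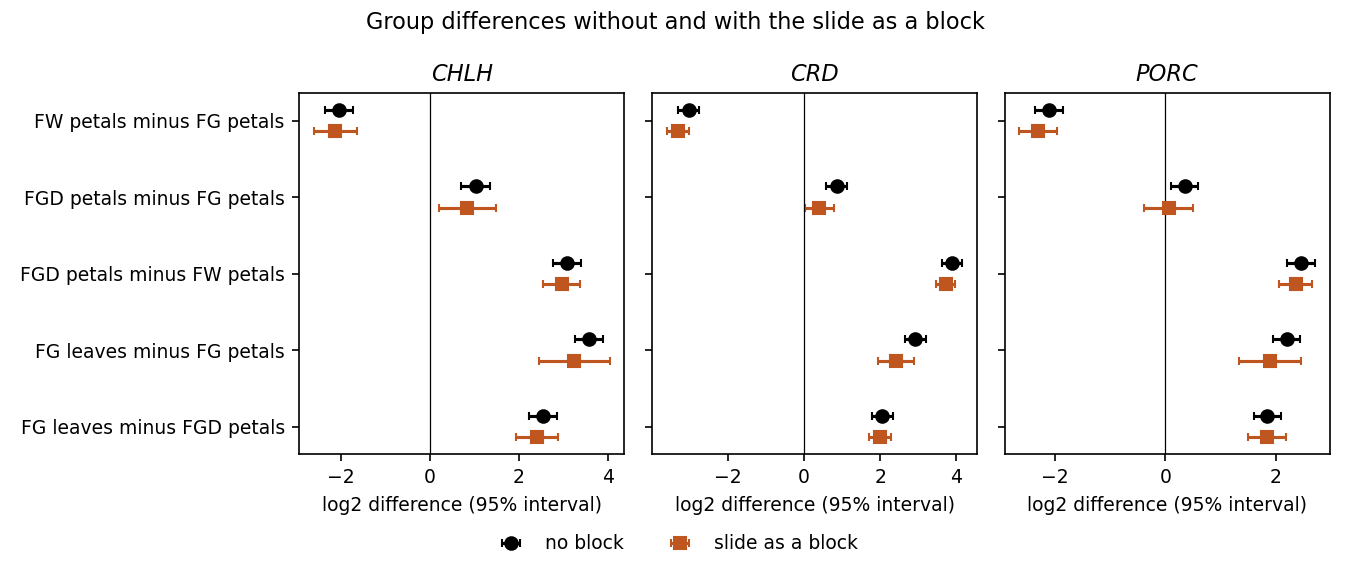
Log2 difference (x axis, with 95% interval) of 5 group comparisons (y axis) for *CHLH*, *CRD*, and *PORC*, fitted without a block (black circles) and with the slide as a block (orange squares). The differences between FGD and FG petals move toward 0, to 0.84, 0.41, and 0.058, whereas the other comparisons keep their side of 0 by over 1.8.

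Whether the genes changed by unequal amounts was tested on the difference of their log2 levels within each array, between the 3 FW petal arrays and the 6 green petal arrays of FG and FGD. *CRD* fell by more than *CHLH* in FW petals, by a factor of 1.86, and by more than *PORC*, by a factor of 2.25 (two-sided exact permutation p = 0.0238 each, the smallest p that 3 arrays against 6 allow; adjusted p = 0.0272 over the 16 tests of this kind). The changes of *CHLH* and *PORC* differed by a factor of 1.21, and their arrays overlapped (exact p = 0.357). In leaves against the same green petals, *CHLH* rose by more than *CRD* by a factor of 1.49 and by more than *PORC* by a factor of 2.06, and *CRD* by more than *PORC* by a factor of 1.38 (exact p = 0.0238 and adjusted p = 0.0272 each). The test pools the green cultivars, which themselves differed, and with quantile normalization the last of these differences no longer passed (exact p = 0.0476, adjusted p = 0.0508). Between FGD and FG petals, *CHLH* exceeded *PORC* in its change by 0.68 and *CRD* exceeded *PORC* by 0.52 on the log2 scale, with no overlap (exact p = 0.1 each, the smallest that 3 arrays against 3 allow). The changes of *CHLH* and *CRD* differed by 0.16 there, with overlap (exact p = 0.2).

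The other genes of the branch gave several patterns. The study's list names 10 probes from *CHLH* to *CHLG*, of which 7 passed the signal cutoff and 3 (*CHLI*, *CHLD*, and *DVR*) were tested with no cutoff applied. *PORA* passed only through its FG and FGD petal signals of 172 to 200, as its signals were 26.1 to 29.2 in FW petals and 39.6 to 61.9 in leaves, so its place among the 7 is no support for its direction; without the cutoff limma called it lower in FW petals too. Of the 10, 5 were lower in FW than in FG petals (*CHLH*, *CRD*, *PORA*, *PORB*, and *PORC*) and none was higher, where 20.0% of all probes were called lower and 30.5% higher. The median log2 difference of the 10 probes was −1.32 and that of the 7 was −2.11, against 0.11 over all probes tested. Between FGD and FG petals the 3 members were called higher, where 14.1% of all probes were, and the other 7 were not called (median of the 10 probes 0.33, against 0.01). The log2 differences there were 0.346 for *PORC* (limma adjusted p = 0.0432), 0.346 for *PORB* (0.176), and 0.310 for *CHLG* (0.0926). The call of *PORC* thus does not set the size of its difference apart from those of *PORB* and *CHLG*. In leaves against FG petals, 7 of the 10 were higher (the 3 members, *CHLI*, *CHLD*, *CHLM*, and *CHLG*), *PORA* was lower, and *PORB* and *DVR* were not called. There, 33.9% of the probes passing the cutoff were called higher and 43.1% lower. The median log2 difference was 0.98 over the 10 probes and 1.53 over the 7, against −0.11 over the probes passing the cutoff. With no cutoff, as *CHLI* and *CHLD* were tested, the median over all probes was 0.27. Of the probes called in that fit, 60.1% were higher in leaves, against 44.0% with the cutoff.

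*CHLH* stood apart from the probes named for the other Mg-chelatase subunits, which were dim, with signals of 30.2 to 47.1 for *CHLI* and 3.89 to 19.2 for *CHLD*. *CHLI* levels ranged from −3.24 to −3.12 in FW, −3.32 to −3.03 in FG, and −3.19 to −2.88 in FGD petals, and from −2.66 to −2.40 in leaves. FW and FG petals differed by −0.04 for *CHLI* (−0.32 to 0.23; limma adjusted p = 0.829 in a fit of all probes). The fall of *CHLH* in FW petals against green petals exceeded that of *CHLI* by a factor of 5.57, and its rise in leaves exceeded that of *CHLI* by a factor of 5.79 and that of *CHLD* by a factor of 4.51 (exact p = 0.0238 and adjusted p = 0.0272 each). In leaves *CHLI* was 1.48-fold higher than in FG petals (limma adjusted p = 0.00267) and *CHLD* 2.15-fold higher (0.02), and neither passed with the slide as a block (0.415 and 0.925). Before scaling, *CHLI* signals were 30.2 to 36.1 in leaves and 34.7 to 42.3 in FG petals, so its rise rests on the scaling of the arrays. Those of *CHLD* were 7.05 to 19.2 and 8.47 to 12.2, and overlapped. *CHLD* was not well above background on any FW petal array, so its change there was not measured, and its leaf call was lost without FG petal replicate 2 (0.0653), leaf replicate 1 (0.062), or leaf replicate 2 (0.0742). The plant gene model that the study pairs with its *CHLI* probe is not one known as *CHLI* in Arabidopsis, so that name is uncertain.

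*CRD* lies next to *CHLM*, the preceding step, and *DVR*. *CHLM* levels ranged from −0.24 to −0.18 in FW, −0.16 to 0.04 in FG, and −0.10 to 0.08 in FGD petals, and from 0.70 to 0.99 in leaves. Its difference between FW and FG petals was −0.18 (−0.38 to 0.03; limma adjusted p = 0.128), and it was 1.81-fold higher in leaves than in FG petals (0.85; adjusted p = 7.62e-06). Before scaling, *CHLM* signals were 305 to 380 in leaves and 310 to 348 in FG petals, so this leaf difference rests on the scaling of the arrays. The change of *CRD* exceeded that of *CHLM* by a factor of 9.58 in FW petals and of 3.13 in leaves (exact p = 0.0238 and adjusted p = 0.0272 each). *DVR* was above background on 2 of the 12 arrays, and no difference of it was called.

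The last step, *CHLG*, was followed in the same way. Its mean levels were 4.14 ± 0.15, 4.32 ± 0.22, and 4.63 ± 0.10 in FW, FG, and FGD petals and 5.84 ± 0.15 in leaves (SD, n = 3 each). FW and FG petals differed by −0.17 (−0.46 to 0.11; limma adjusted p = 0.272), and leaves were 2.88-fold above FG petals (1.53; adjusted p = 1.02e-06). Before scaling, *CHLG* signals were 10608 to 12204 in leaves and 5786 to 7631 in FG petals, so the size of that fold rests in part on the scaling. *CHLG* was higher in FGD than in FW petals by 0.48 (adjusted p = 0.00766), and by 0.34 with the slide as a block (adjusted p = 0.085).

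**Figure D3:**
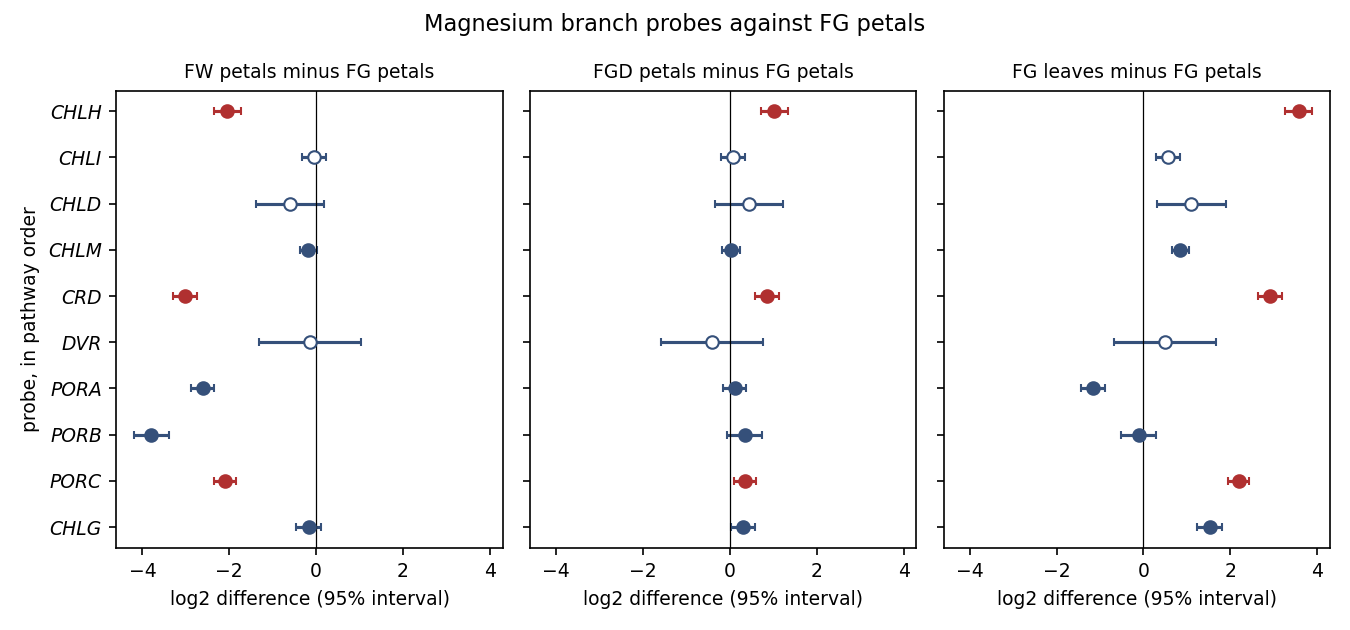
Log2 difference from FG petals (x axis, with 95% interval) of the 10 magnesium branch probes in pathway order (y axis), for FW petals, FGD petals, and leaves. Red marks *CHLH*, *CRD*, and *PORC*, blue the other genes, and open circles the 3 probes below the signal cutoff. *CHLI*, *CHLM*, and *CHLG* lie within 0.18 of 0 in FW petals, where *CHLH*, *CRD*, and *PORC* lie at −2.04 to −3.02.

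The 3 POR probes were alike in being lower in FW than in green petals but differed in leaves. *PORB* levels ranged from −1.40 to −0.70 in FW, 2.69 to 3.00 in FG, and 2.98 to 3.32 in FGD petals, and from 2.48 to 2.82 in leaves. Those of *PORA* ranged from −3.56 to −3.46 in FW, −1.01 to −0.80 in FG, and −0.85 to −0.66 in FGD petals, and from −2.27 to −1.76 in leaves. The leaf arrays of *PORB* thus overlapped those of FG petals, and those of *PORA* lay below every green petal array, whereas *PORC* was highest in leaves. Before scaling, *PORB* signals were 1172 to 1352 in leaves and 2237 to 2766 in FG petals, so that overlap rests on the scaling of the arrays.

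*PORB* was reduced 13.9-fold in white petals relative to FG petals (log2 difference −3.79; limma adjusted p = 2.08e-07), and its fall against green petals exceeded that of *PORC* by a factor of 3.22 (exact p = 0.0238, adjusted p = 0.0272). In leaves it differed from FG petals by −0.11 (−0.51 to 0.29; adjusted p = 0.587) (−0.78 and 0.0682 with the slide as a block) and from FGD petals by −0.46 (adjusted p = 0.0377; 0.0514 with the slide as a block), where 43.2% of all probes were called lower in leaves. Without single arrays the latter was lost in 3 of 12 cases, namely FGD petal replicate 2 (adjusted p = 0.119), FGD petal replicate 3 (0.0809), and leaf replicate 2 (0.13). *PORA* was 2.24-fold lower in leaves than in FG petals (−1.16; adjusted p = 5.96e-06) and 2.43-fold lower than in FGD petals (−1.28; adjusted p = 2.72e-06). With normexp these log2 differences were −0.45 and −0.64, and with signals under 100 raised to 100 they were −0.67 and −0.79, all of them called. The rise of *PORC* in leaves against green petals exceeded the change of *PORA* by a factor of 9.43 and that of *PORB* by a factor of 4.93 (exact p = 0.0238 and adjusted p = 0.0272 each).

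In FW petals *PORA* differed from FG petals by −2.62 on the log2 scale (limma adjusted p = 1.7e-07), but its FW petal signals were only 26.1 to 29.2. With normexp background correction its difference was −1.30, and with signals under 100 raised to 100 it was −0.67. The difference between the changes of *PORC* and *PORA* in FW petals was 0.39 (exact p = 0.0476, adjusted p = 0.0508), and it turned to −0.85 and −1.55 in those settings, so that no direction can be given. The 3 POR probes stand for 3 contigs of a polyploid plant, and how far near-identical copies hybridized to each probe was not tested.

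**Figure D4:**
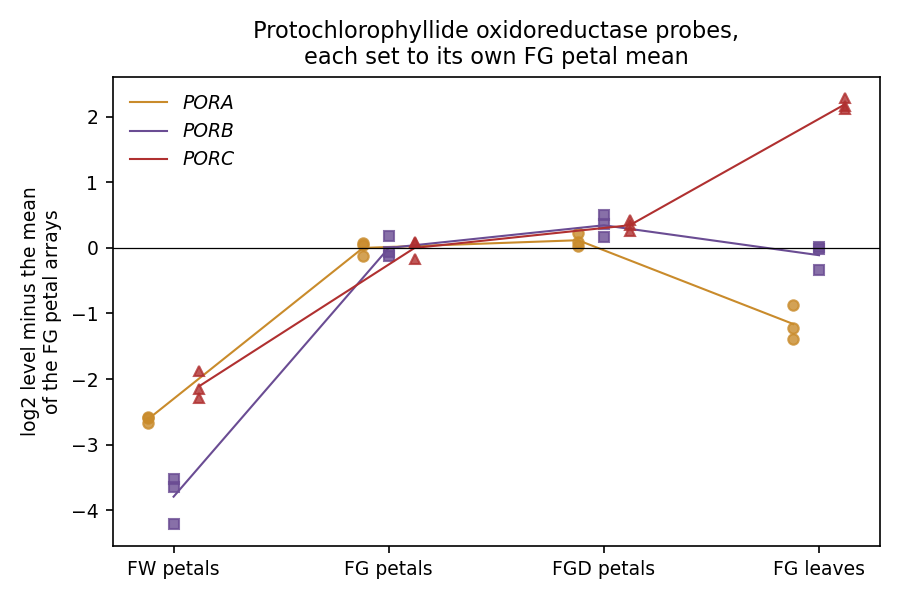
Log2 level of the *PORA*, *PORB*, and *PORC* probes minus the probe's own mean in FG petals (y axis) in the 4 groups (x axis). Points are arrays and lines join group means. The probes share the low level in FW petals and part in leaves, at −1.16, −0.11, and 2.19.

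As a description of likeness, Pearson r of log2 levels over the 12 arrays was 0.983 between *CHLH* and *CRD*, 0.988 between *CHLH* and *PORC*, and 0.994 between *CRD* and *PORC*. The 12 arrays form 4 groups of 3, so that these values mostly follow the group means. After the group means were subtracted, r was 0.704, 0.733, and 0.798. Over all other probes, 3.01% to 7.26% had an r as high with the member compared. The highest of the 3 arrays was replicate 2 in FW petals, replicate 2 in FG petals, and replicate 1 in leaves for every member. In FGD petals it was replicate 3 for *CHLH* and *CRD* and replicate 1 for *PORC*. Of all probes, 30.8%, 37.6%, and 30.9% were highest on those FW petal, FG petal, and leaf arrays, and 36.6% on FGD petal replicate 3.

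Among the 61 other named probes of the study's lists that passed the cutoff, the pattern of *CHLH* was most like those of *PORC* (r = 0.988), *NOL* (0.985), which encodes a Chl *b* reductase subunit, and *HEMA1* (0.983), which encodes glutamyl-tRNA reductase at the start of tetrapyrrole synthesis. *CRD* was most like *PORC* (0.994), *GSA1* (0.990), which encodes glutamate-1-semialdehyde aminotransferase, and *HEMG1* (0.988), which encodes protoporphyrinogen oxidase. *PORC* was most like *CRD*, *CHLH*, and a GATA transcription factor probe (0.986). The study listed that probe for its large difference between FG and FW petals on these same arrays. Its likeness to *PORC*, which also differs between them, is therefore partly built in by that choice. *SGR*, which encodes the Mg-dechelatase that starts Chl breakdown, had the lowest r with each of the 3, at −0.963 with *CHLH*, −0.906 with *CRD*, and −0.915 with *PORC*. Of the unnamed probes, PD0028_178206 and PD0028_042081 had the highest lowest r with the 3 members, both 0.994. An r of at least 0.95 with all 3 was found for 2002 of 70202 probes (2.85%).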

How the data were processed

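The authors deposited scanner files with the background-corrected intensity that Feature Extraction computed for each spot, and log2 values of these arrays in a single table. Per the file headers the software version was 10.10.1.1, whereas the submitters' processing notes give 10.7.1.1 and the study's text names another. Group differences in the deposited log2 table were within 0.000645 of those computed here over all probes without a missing spot, and its centering is not stated.

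The 4854 control spots were dropped. Outlier spots, 7 to 37 on an array and none among the 10 branch probes, were set to missing. Each array's 75th percentile was subtracted from its log2 intensities. Probes with a mean signal of at least 100 over the 12 arrays were tested with limma 3.58.1 in R 4.3.3, with 1 mean for each group, and *CHLI*, *CHLD*, and *DVR*, below this cutoff, in a fit of all probes. Intervals for differences are 95% intervals. Exact permutation tests used scipy 1.17.1 and pandas 2.3.3 in Python 3.11.15, and figures matplotlib 3.10.9. On simulated data for FW against FG petals with 70270 probes, 70 of 100 probes changed by 1 on the log2 scale and 96 of 100 changed by 2 were recovered, with 7 false calls.

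The probes named are the members, the other 7 branch probes, for each member the 3 named probes most like it and the least like, and the 2 unnamed probes most like all 3. The members, the lists, and this rule were chosen with earlier results of these data known. Groups came from the sample labels, and slides from the array barcodes and positions in the files. Replicate numbers were not used to pair the arrays, as same-numbered arrays did not consistently deviate together. Whether same-numbered samples were harvested or handled together is not known from the labels. The alternatives were quantile and median normalization, normexp (offset 50), the deposited log2 values, testing every probe, testing those well above background in a group, raising signals under 100 to that value, fitting the compared groups alone, trended and robust variances, replicate and slide blocks, and leaving out each array. Normexp used median signals in place of the mean signals planned for it, a choice made after seeing the data, as were all alternatives for the tests of unequal change and for likeness. The number of arrays limits the precision.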

Additional observations from a re-analysis of the deposited data

How the results depend on the processing

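Of 345 recomputed differences of *CHLH*, *CRD*, and *PORC* (5 comparisons, 11 settings, and 12 arrays left out in turn), none changed sign, 328 kept their side of the threshold, and 17 lost it, all of them between FGD and FG petals. The difference of *PORC* there passed in 8 of 23 settings. It was 0.33 with median normalization (limma adjusted p = 0.0598), 0.26 with normexp (0.0769), 0.35 without the filter (0.103), and 0.35 with the filter on probes well above background (0.0671). With arrays left out it was 0.26 to 0.39 and passed in 3 of 12 cases (adjusted p = 0.0227 to 0.154), without FW petal replicate 1 or 2 or leaf replicate 2. Leaving out any FG or FGD petal array, FW petal replicate 3, or leaf replicate 1 or 3 ended the call. With the slide as a block it was 0.058 (adjusted p = 0.911), that of *CHLH* 0.84 (0.146), and that of *CRD* 0.41 (0.235). The count of called branch probes between FGD and FG petals went from 3 to 0 with the slide block, and the other 114 recomputed counts stayed within 1.5 times. With arrays left out, *CHLH* differed by 0.93 to 1.15 and *CRD* by 0.82 to 0.94 between FGD and FG petals, and both passed in every case.

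Same-numbered arrays did not consistently deviate together: r of deviations was −0.36 to 0.39 over 18 same-numbered pairs, 5 of them over 0.1, and 3 of 12 arrays correlated best with their own number. These values cannot show whether same-numbered samples were harvested or handled together. With the replicate block the difference of *PORC* between FGD and FG petals was 0.35 (adjusted p = 0.0662), and probes called over the whole array went from 19858 to 17806. It changed no other call of the members.

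Of 790 recomputed differences of the other 7 branch probes, 13 fell below and 9 passed the threshold that the value in the report did not. With signals under 100 raised to 100, *CHLI*, *CHLD*, and *DVR* have no value. Of the 16 tests of unequal change, 14 passed, *CHLD* in FW petals, which was not measured, included, and 13 to 15 passed in 11 alternatives; leaving out an FW petal or leaf array was not run, since 2 arrays against 6 cannot pass. The lowest r between members stayed between 0.979 and 0.986.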
